A study of Homo sapiens with 12 samples.

Results

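Genes used as stem cell markers in lung cancer were followed in A549 cells: SOX2, NANOG, LIN28B, TERT, PROM1, CD44, CD24, BMI1, THY1 and SOX9. Members were taken as all probe sets whose symbol in the probe table was exactly 1 of these names. That gave 34 probe sets for 9 of the 10 genes, out of 19775 genes with a probe set of their own. The only probe set listed for BMI1 is shared with the readthrough transcript COMMD3-BMI1, so BMI1 was not analysed here.

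The line A549 was derived from a human lung adenocarcinoma. RNA from 12 sorted samples was hybridised to an Affymetrix expression array, on which a probe set is a group of short probes read together as 1 value. The 4 groups of 3 biological replicates were anti-EpCAM treated side population (SP) cells, anti-EpCAM treated non-SP cells, untreated SP cells and untreated non-SP cells. The side population is the fraction of cells that pump out a Hoechst dye, and all 4 groups had been stained with that dye at 5 µg/ml for 90 min before sorting. Treated cells had been kept for 48 h with 100 µg/ml of a monoclonal antibody to EpCAM. Its label is anti-mouse EpCAM, which leaves its host and its target species unclear, and no control antibody is named for the untreated cells. All samples come from 1 cell line, and the sort is a gate on dye efflux, not on any of the markers.

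SOX2 and NANOG are transcription factors of pluripotent cells. LIN28B is an RNA-binding protein that blocks maturation of the let-7 microRNAs, which in turn silence growth genes, and TERT is the catalytic subunit of telomerase. PROM1 (CD133), CD44, CD24 and THY1 (CD90) are surface proteins used to sort tumour cells. SOX9 is a transcription factor of lung branching and cartilage, and it recurs in epithelial tumours.

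The arrays look normalised in sets of 2, an SP array with the non-SP array that shares its treatment and number. The sorted values of such a pair differed by a mean of 0.0093 to 0.0213 on the log2 scale, against 0.0461 to 0.524 for the other 60 array pairs. All levels below are therefore log2 values after quantile normalisation over the 12 arrays, and a difference of 1 on this scale is a factor of 2. The sort could be checked with ABCG2, the pump that exports Hoechst dye: its difference SP minus non-SP was 0.47 ± 0.06 (SE, 6 pairs), higher in 6 of 6 pairs, with a limma adjusted p of 0.0253. Epithelial markers fitted the label: KRT8 (mean level 13.41), KRT18 (14.55), KRT19 (11.11), CDH1 (11.56) and EPCAM (9.86) lay above the background defined below, 5 of 8 genes listed. Of the markers of differentiated lung cells, 2 of 10 did (SFTPB 7.53 and SFTPC 7.78), of fibroblasts 1 of 6 (COL1A1, 9.31), and of immune and of endothelial cells 0.

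A probe set was tested if its mean over 12 arrays was above the 40th percentile of all probe sets, a log2 level of 5.39. Background was the 95th percentile, 6.98, of 61 probe sets of 41 genes restricted to other tissues, such as heart, retina and germ line. Of the 34 member probe sets, 25 passed the filter and 18 also lay above background. Levels of different probe sets were not set against each other, since probes differ in brightness.

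COL1A1, a chain of type I collagen, had the lower value in the SP array of each pair. It did not pass a limma adjusted p of 0.05 over all probe sets. Its levels were 8.16, 9.39 and 9.80 in anti-EpCAM treated SP cells, against 8.75, 9.91 and 10.60 in anti-EpCAM treated non-SP cells. In untreated cells they were 8.18, 8.75 and 9.82 in SP cells, against 8.35, 9.65 and 10.32 in non-SP cells. The difference SP minus non-SP was -0.58 ± 0.09 (SE, lower in 6 of 6 pairs), with a limma adjusted p of 0.0504 over all probe sets and 0.0084 with 1 probe set per gene, the brightest. COL1A2, DCN and PDGFRB passed the filter within background and had 0.13, -0.05 and -0.06, while COL3A1 and LUM lay below the filter. The mean log2 level of the 6 fibroblast markers ran from 5.50 to 6.09 in anti-EpCAM treated SP cells, against 5.75 to 6.44 in anti-EpCAM treated non-SP cells, and from 5.69 to 6.16 in untreated SP cells, against 5.80 to 6.26 in untreated non-SP cells. Without COL1A1, the mean of the other 5 markers lay within background in all groups. It ran from 4.96 to 5.35 in anti-EpCAM treated SP cells, against 5.14 to 5.61 in anti-EpCAM treated non-SP cells. In untreated cells it ran from 5.08 to 5.42 in SP cells, against 5.18 to 5.45 in non-SP cells. The part of the fibroblast markers in the results below was not tested.

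NANOG and PROM1 were undetected in A549. NANOG had mean levels of 5.34 (probe set 231079_at) and 3.86 (220184_at), and PROM1 had 3.72 (204304_s_at), all below both limits. No array lifted PROM1 above 3.98. The highest NANOG value was 5.69, still within background. In the fit without a filter, SP minus non-SP was -0.05 and 0.03 for NANOG (231079_at and 220184_at) and -0.01 for PROM1, with limma adjusted p of 0.861, 0.935 and 0.985. A signal within background gives an upper limit on the measured level and does not show that no transcript was made.

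TERT and THY1 passed the filter and stayed within background. TERT had a mean of 6.52 on 207199_at and 4.93 on 1555271_a_at, the second below the filter. The 3 THY1 probe sets had means of 6.35, 6.30 and 6.11. With the 75th percentile of the silent probe sets as the limit (5.80), both genes would count as above background, and with the 99th (7.58) neither would.

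The other 5 genes lay above background: SOX2, LIN28B, CD44, CD24 and SOX9. SOX2 did so by 1 of its 4 probe sets, 228038_at with a mean of 7.61, close to the limit of 7.58 that the 99th percentile gives. The other SOX2 probe sets had 5.98, 5.43 and 5.34, the last below the filter. LIN28B had 8.98 on its single probe set, 229349_at. The 6 CD24 probe sets had means of 10.79 to 13.52, and the 2 of SOX9 had 10.61 and 9.87. CD44 has 13 probe sets, of which 8 lay above background, up to 12.87 on 212063_at, while 217523_at (6.42) passed the filter only and 4 others, at 3.48 to 4.62, lay below it.

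**Figure D1:**
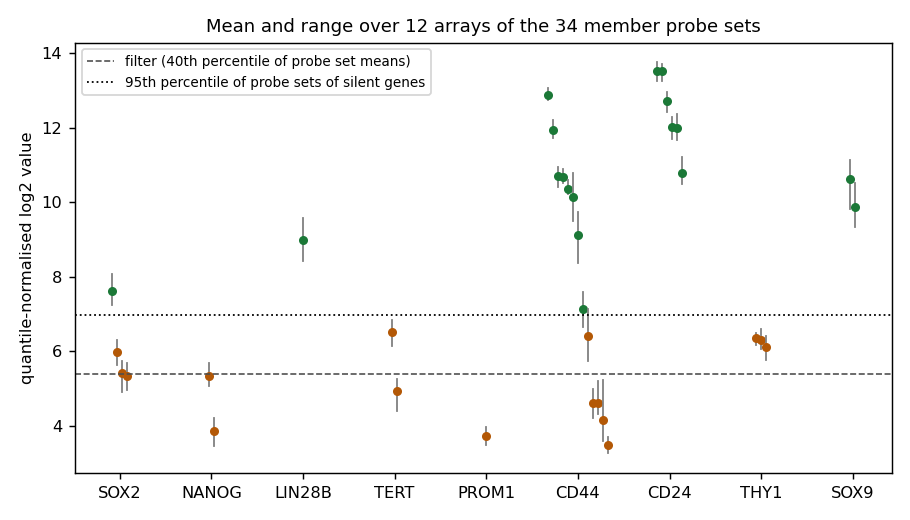
Mean quantile-normalised log2 level (vertical axis) of each of the 34 member probe sets, grouped by gene; bars run from the lowest to the highest of the 12 arrays. The dashed line is the filter (5.39) and the dotted line is the background (6.98): green probe sets have means above background, orange ones at or under it, and all probe sets of NANOG and PROM1 lie below the dashed line.

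The first comparison asks whether sorted SP cells carry more of these transcripts than non-SP cells. TERT and LIN28B were higher in SP cells in 6 of 6 pairs and SOX2 in 5 of 6, with mean log2 differences of 0.31, 0.33 and 0.26, and none of the 25 member probe sets passed an adjusted p of 0.05. The TERT signal stayed within background, so its difference is one of signal and gives no fold change of the transcript. Over all 32768 probe sets tested 200 passed, or 0.61%, so a count of 0 among 25 lies near the background. Of the members, 7 of 25 had an unadjusted p under 0.05, against 14.5% of all probe sets. The median difference SP minus non-SP over the member probe sets was -0.05 (10 positive, 15 negative), and that over all probe sets was 0.01. Of these 25 probe sets, 9 are of CD44 and 6 of CD24, so the 2 genes weigh most in that median. With the brightest probe set of each gene, the median over 7 members was 0.21 (4 positive, 3 negative), against 0.01 over 14650 genes. SP differences were taken within the 6 pairs, and the limma p-values treat the pairs as independent, which the labels do not say. In sorted bulk samples, fewer cells expressing a gene and less RNA per cell cannot be told apart.

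LIN28B, the let-7 blocker, had log2 levels of 8.66, 9.38 and 9.34 in anti-EpCAM treated SP cells, against 8.43, 8.96 and 9.06 in anti-EpCAM treated non-SP cells. In untreated cells it had 8.86, 9.04 and 9.57 in SP cells, against 8.46, 8.99 and 8.99 in non-SP cells. The SP array was the higher one of every pair, while the groups overlapped, with replicate 1 the lowest in all 4 groups. The differences SP minus non-SP were 0.23, 0.42 and 0.28 in the anti-EpCAM pairs, and 0.40, 0.05 and 0.58 in the untreated pairs. Their mean was 0.33 ± 0.08 (SE, 6 pairs), a factor of 1.25 with a 95% interval of 1.11 to 1.42, at a limma adjusted p of 0.120. With 1 probe set per gene, which leaves 14650 tests, the limma adjusted p was 0.0395, and 2.41% of those genes passed (0.983% with a higher level in SP cells).

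LIN28 proteins bind a GGAG motif in the loop of the let-7 precursor, and mature let-7 acts through its seed, bases 2 to 8. Both are shown because they are the parts through which LIN28B acts; no let-7 level was measured here. Sequences are from RefSeq (GRCh38.p14), 5′ to 3′. The hairpin of let-7g lies on the minus strand at chr3:52268278-52268361, with GGAG in capitals, and the mature arms have the seed in capitals; the mature let-7a is that of MIRLET7A1.
let-7g hairpin: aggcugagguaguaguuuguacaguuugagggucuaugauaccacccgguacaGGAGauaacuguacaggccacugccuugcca
let-7g-5p: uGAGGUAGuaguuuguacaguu
let-7a-5p: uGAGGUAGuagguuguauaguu
All 9 mature 5p arms of the human let-7 family in that table, miR-98 included, hold the seed GAGGUAG.

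Of 12 genes of let-7 processing and let-7 targets above the filter, 0 passed in either direction with all probe sets or with 1 per gene, at a median difference of 0.00. With 0.61% of all probe sets called, and 2.41% of genes with 1 probe set each, a count of 0 in a list of this size lies near the background. That holds too for the counts of 0 in the lists below. A pair of let-7 targets, picked after their values were seen, were IGF2BP1, an mRNA-binding protein, at 0.19 ± 0.05 (SE; higher in 6 of 6 pairs; limma adjusted p = 0.135) and HMGA2, a chromatin protein, at 0.23 ± 0.09 (5 of 6 pairs; limma adjusted p = 0.303). On the same list IGF2BP2, IGF2BP3 and HMGA1 went the other way, at -0.08 ± 0.07, -0.03 ± 0.06 and -0.04 ± 0.08. They were higher in SP cells in 1, 1 and 2 of 6 pairs. Over the 12 genes, 7 differences were positive and 5 negative. DICER1, which cuts the precursor, had a difference of 0.00 ± 0.07.

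TERT, whose levels stayed within background, had 6.82, 6.45 and 6.57 in anti-EpCAM treated SP cells, against 6.40, 6.28 and 6.38 in anti-EpCAM treated non-SP cells. In untreated cells the levels were 6.85, 6.59 and 6.80 in SP cells, against 6.51, 6.13 and 6.50 in non-SP cells. Within each treatment all 3 SP arrays lay above all 3 non-SP arrays, which was not counted over all probe sets. A higher SP value in 6 of 6 pairs was seen for 5.5% of them. The differences were 0.42, 0.16 and 0.19 in the anti-EpCAM pairs, and 0.33, 0.46 and 0.30 in the untreated pairs. Their mean was 0.31 ± 0.06 log2 units of signal (SE, 6 pairs; 95% interval 0.18 to 0.45), with a limma adjusted p of 0.0723 over all probe sets and 0.0216 with 1 probe set per gene. The second TERT probe set, 1555271_a_at, lay below the filter and differed by 0.08 ± 0.06, higher in 5 of 6 pairs.

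Of 14 genes of telomerase assembly and of the shelterin complex, which caps telomeres, 0 passed in either direction, against 0.61% of all probe sets, at a median of 0.01 (7 positive, 7 negative). TERF1, a shelterin subunit that binds telomere repeats, had 0.12 ± 0.06. NOP10 and NHP2, proteins of the telomerase RNA particle, had -0.02 ± 0.06 and -0.03 ± 0.05.

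SOX2 had, on 228038_at, 7.58, 7.84 and 7.90 in anti-EpCAM treated SP cells, against 7.39, 7.65 and 7.56 in anti-EpCAM treated non-SP cells. In untreated cells it had 7.52, 7.52 and 8.07 in SP cells, against 7.24, 7.53 and 7.49 in non-SP cells. Untreated replicate 3 held the highest SP value, and the arrays of untreated pair 2 were nearly equal. The differences were 0.19, 0.19 and 0.33 in the anti-EpCAM pairs, and 0.28, -0.01 and 0.58 in the untreated pairs. Their mean was 0.26 ± 0.08 (SE), a factor of 1.2 (95% interval 1.05 to 1.36), with a limma adjusted p of 0.209 over all probe sets and 0.101 with 1 probe set per gene. The weaker SOX2 probe sets had 0.03 ± 0.07 (213721_at) and 0.13 ± 0.08 (214178_s_at), and 213722_at, below the filter, had 0.00 ± 0.07 in the fit without a filter.

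The bases upstream of the starts of LIN28B and SOX2 are shown because, taking the brightest probe set of each gene, these genes and TERT had the highest differences among the members with a promoter entry. RefSeq gave windows for 8 of the 10 genes, THY1 and SOX9 not among them. Capitals mark the GC box, letters GGGCGG or CCGCCC on the other strand, bound by SP1-type factors, and the E-box CACGTG, which reads the same on both strands and is bound by MYC-type factors. The windows are 250 bases on the plus strand of GRCh38.p14, at chr6:104940715-104940964 and chr6:104956857-104957106 for 2 starts of LIN28B and at chr3:181711675-181711924 for SOX2.
LIN28B start 1: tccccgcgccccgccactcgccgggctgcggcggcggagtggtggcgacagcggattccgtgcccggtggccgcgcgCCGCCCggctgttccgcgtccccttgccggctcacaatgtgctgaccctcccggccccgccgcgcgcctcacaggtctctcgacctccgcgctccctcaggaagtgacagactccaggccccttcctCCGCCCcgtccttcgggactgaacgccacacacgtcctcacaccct
LIN28B start 2: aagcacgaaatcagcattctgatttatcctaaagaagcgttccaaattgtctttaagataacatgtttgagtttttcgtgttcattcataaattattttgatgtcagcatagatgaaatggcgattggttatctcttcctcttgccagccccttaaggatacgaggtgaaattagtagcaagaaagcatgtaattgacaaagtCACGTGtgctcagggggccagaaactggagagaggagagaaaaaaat
SOX2: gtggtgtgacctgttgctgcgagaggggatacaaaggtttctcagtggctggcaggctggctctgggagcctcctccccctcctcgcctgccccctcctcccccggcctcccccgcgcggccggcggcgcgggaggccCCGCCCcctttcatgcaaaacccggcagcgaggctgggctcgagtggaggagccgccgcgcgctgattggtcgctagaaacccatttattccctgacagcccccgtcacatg
Start 1 of LIN28B holds 2 GC boxes, start 2 holds 1 E-box, SOX2 holds 1 GC box, and the window of TERT holds 1 E-box and 2 GC boxes. Of 35116 human windows of this length, 42.6% hold a GC box and 6.34% an E-box. A match describes these letters and is not a measured binding site.

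**Figure D2:**
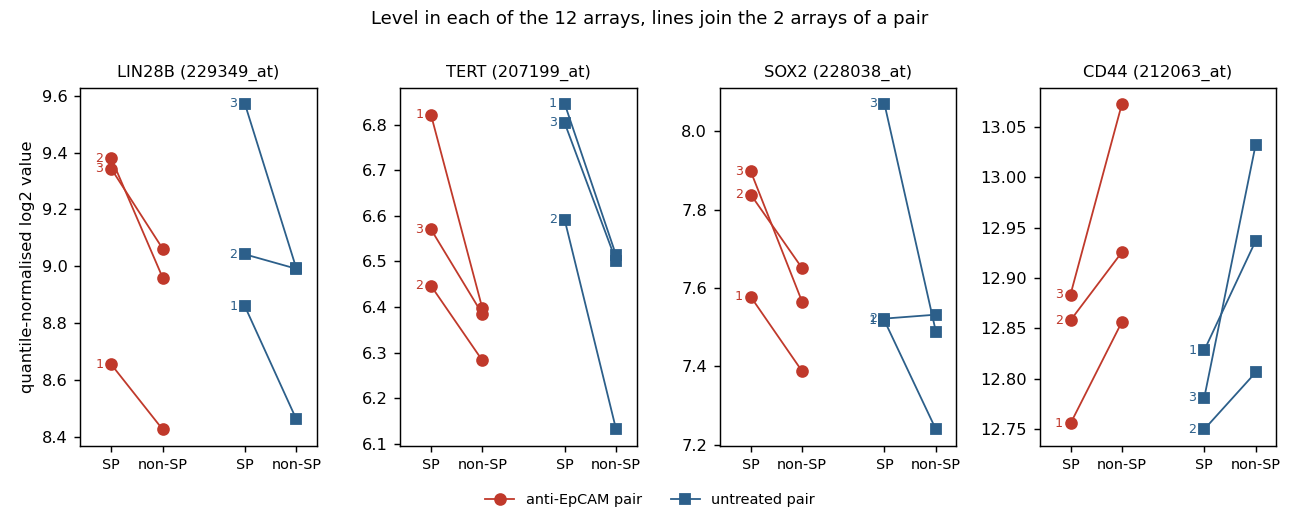
Quantile-normalised log2 level (vertical axes, with a range of their own in each panel) of LIN28B, TERT, SOX2 and CD44 in the 12 arrays; lines join the SP and the non-SP array of a pair, red circles are anti-EpCAM pairs and blue squares untreated pairs, numbered by replicate. The line falls toward non-SP in 6 of 6 pairs for LIN28B and TERT and in 5 of 6 for SOX2, and climbs toward non-SP in 6 of 6 for CD44 (212063_at).

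Of 9 other pluripotency genes above the filter, 1 rose and 0 fell, against 0.61% of all probe sets called in either direction, at a median of -0.03. The one that rose was MYC, a growth-promoting transcription factor, at 0.38 ± 0.06 (SE; higher in 6 of 6 pairs; limma adjusted p = 0.0449). The calls of MYC and ABCG2 were both lost when any 1 untreated pair was left out, since limma then called 0 probe sets in all. KLF4, a reprogramming factor, had -0.08 ± 0.05 and was lower in SP cells in 6 of 6 pairs. DNMT3B, a DNA methyltransferase of early embryos, had -0.03 ± 0.06. Among the SOX family, 0 of 11 genes above the filter passed with all probe sets. SOX4, a factor of progenitor cells, had -0.23 ± 0.05 and was lower in 6 of 6 pairs, with a limma adjusted p of 0.108 over all probe sets and 0.0478 with 1 per gene.

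SOX9 itself had a higher SP value in 5 of 6 pairs on 202936_s_at, with 10.56, 10.72 and 10.92 in anti-EpCAM treated SP cells, against 10.14, 10.88 and 10.57 in anti-EpCAM treated non-SP cells. In untreated cells it had 10.17, 10.79 and 11.13 in SP cells, against 9.82, 10.72 and 10.91 in non-SP cells. The groups overlapped, and the untreated non-SP arrays alone ran from 9.82 to 10.91. The mean difference was 0.21 ± 0.09 (SE), a factor of 1.16 (95% interval 1.01 to 1.33), at a limma adjusted p of 0.324. On the second probe set, 202935_s_at, the difference was 0.14 ± 0.13, with pairs from -0.28 to 0.69.

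CD44, the receptor of hyaluronan, had mean differences below 0 on 8 of its 9 probe sets above the filter, from -0.23 to -0.04, and these 8 are the ones above background. None passed. The brightest, 212063_at, had 12.76, 12.86 and 12.88 in anti-EpCAM treated SP cells, against 12.86, 12.93 and 13.07 in anti-EpCAM treated non-SP cells. In untreated cells it had 12.83, 12.75 and 12.78 in SP cells, against 12.94, 12.81 and 13.03 in non-SP cells. It was lower in SP cells in 6 of 6 pairs by a small amount, -0.13 ± 0.05 (SE), a factor of 0.915 (95% interval 0.84 to 0.996), at a limma adjusted p of 0.329. The next brightest, 204489_s_at, had -0.10 ± 0.05 and was lower in 5 of 6 pairs, and 229221_at had -0.04 ± 0.11 and was lower in 2 of 6. By contrast 217523_at, whose mean lay within background, was higher in 6 of 6 pairs by 0.28 ± 0.09 (limma adjusted p = 0.205). The 4 probe sets below the filter had -0.10 to 0.11 in the fit without a filter. Over all members 3 probe sets were higher in 6 of 6 pairs, those of LIN28B and TERT and 217523_at of CD44, against 5.5% of all probe sets tested. Of the members, 212063_at alone was lower in 6 of 6, against 4.64%.

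Some of the CD44 probe sets moved with a control of RNA quality. The array carries probe sets at the 3′ and the 5′ end of GAPDH, and their log2 ratio is higher where RNA is more degraded or less fully copied. This ratio, SP minus non-SP, was 0.54, 0.30 and -0.38 in the anti-EpCAM pairs, and -0.11, 0.01 and 0.11 in the untreated pairs. CD44 210916_s_at had differences of -1.28, -0.99 and 0.91 in the same anti-EpCAM pairs, and 0.26, -0.04 and -0.27 in the untreated pairs. In both pairs in which the ratio was lower in SP cells, this probe set was higher in SP cells. Over the 6 pairs Pearson's r was -0.992 and Spearman's rho -1, each with an exact two-sided permutation p of 0.00278, the smallest 6 pairs allow, and 0.0231 after adjustment over 25 relations. Without the 2 pairs farthest from the median of the ratio, r was -0.991.

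The same held for 1557905_s_at (r = -0.988, rho = -1) and 209835_x_at (r = -0.954, rho = -1), each with an exact permutation p of 0.00278 for r and for rho. On 212014_x_at and 204490_s_at r was -0.950 and -0.918, and rho was -0.943 on both. After adjustment over the 25 relations their exact permutation p was 0.0347 and 0.0417 for r and 0.0833 for each rho. Without the same 2 pairs, r on 204490_s_at was -0.727. An r under -0.9 was found for 3.1% of all probe sets tested and for 5 of 25 members, all of CD44, which are probe sets of 1 gene and not independent. The brightest CD44 probe set had r = 0.334, LIN28B 0.04, TERT 0.318 and SOX2 (228038_at) -0.172, with exact permutation p of 0.494, 0.947, 0.533 and 0.794. Without the same 2 pairs r was 0.0063 for that CD44 probe set, 0.309 for LIN28B, -0.747 for TERT and 0.0878 for SOX2, so the sign turned for TERT and SOX2 and neither shows a stable relation. With 3 pairs per treatment, no r was computed within a treatment, and the part of RNA quality in these differences was not tested beyond the fit with the ratio as a covariate. In that fit the difference of 210916_s_at was -0.04, against -0.23 without the covariate, while those of LIN28B and TERT were 0.32 and 0.30.

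**Figure D3:**
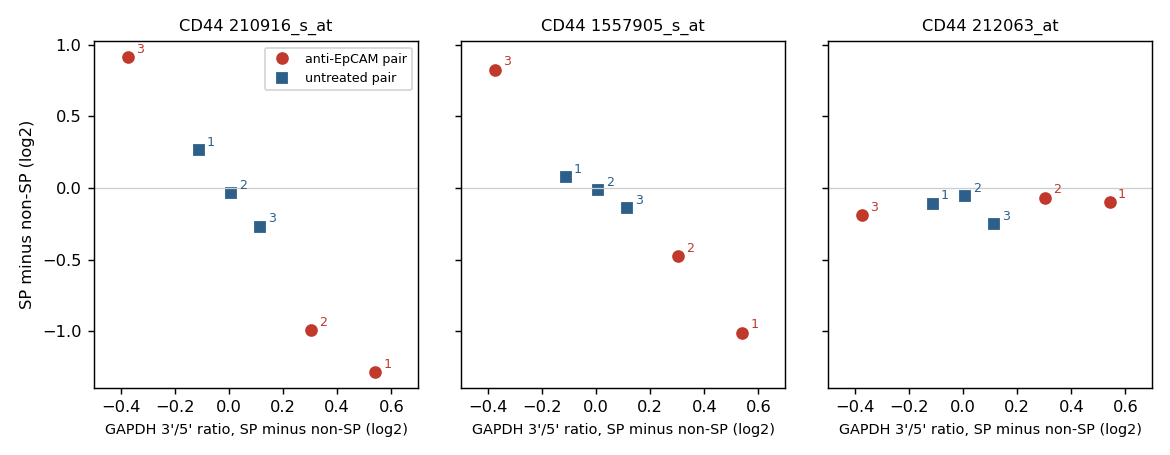
SP minus non-SP of 3 CD44 probe sets (vertical axis, log2) against SP minus non-SP of the GAPDH 3′ to 5′ log2 ratio (horizontal axis) in the 6 pairs; red circles are anti-EpCAM pairs and blue squares untreated pairs, numbered by replicate. The first and second panel fall along a line (r = -0.992 and -0.988), and the third, of the brightest probe set, stays between -0.25 and -0.06.

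Of 11 genes that make, cut or bind hyaluronan or CD44 and lay above the filter, 0 passed with all probe sets, at a median of 0.02. CEMIP, which binds and helps degrade hyaluronan, had the highest difference of the list, 0.57 ± 0.11 (SE; higher in 6 of 6 pairs), with a limma adjusted p of 0.0776 over all probe sets and 0.0188 with 1 per gene. EZR, a linker of CD44 to the cytoskeleton, had 0.15 ± 0.05 and HAS2, a hyaluronan synthase, -0.19 ± 0.08. CEMIP and these examples were picked after their values were seen.

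CD24, a small glycoprotein of the cell surface, had differences near 0. Its 6 probe sets gave -0.14 to 0.01, and 209772_s_at was the lowest at -0.14 ± 0.05 (SE; lower in 5 of 6 pairs; limma adjusted p = 0.278). On that probe set the anti-EpCAM pairs had -0.31, -0.26 and -0.30, and the untreated pairs had 0.11, -0.03 and -0.07. The brightest, 216379_x_at, had a difference of -0.06 with a 95% interval of -0.22 to 0.10, which covers factors of 0.857 to 1.07. The probe sets of CD24 share transcripts and are not replicates of each other. The 3 of THY1 had -0.05 to 0.02, each higher in 3 of 6 pairs.

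**Figure D4:**
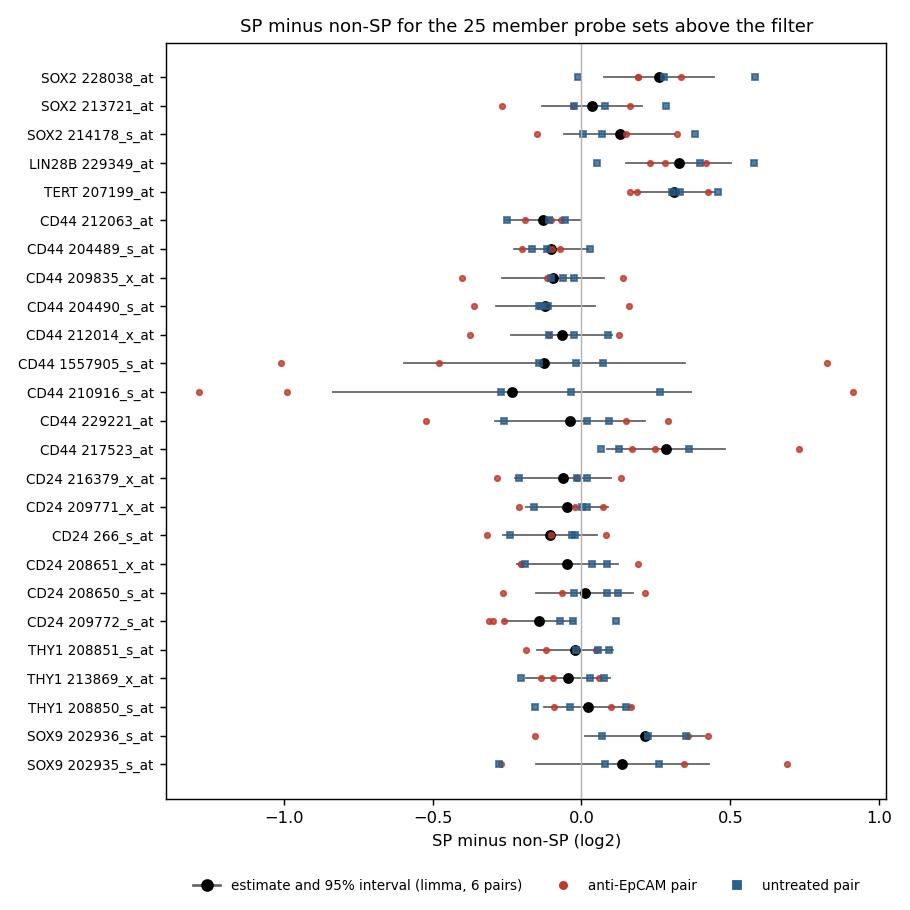
SP minus non-SP (horizontal axis, log2) of the 25 member probe sets above the filter, from SOX2 at the top to SOX9 at the bottom; black points and lines are limma estimates with 95% intervals, red circles anti-EpCAM pairs, blue squares untreated pairs. LIN28B and TERT have all 6 pairs right of 0, and CD44 210916_s_at and 1557905_s_at have the widest spread.

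For BMI1, a subunit of Polycomb repressive complex 1, only other Polycomb genes could be read. Of 16 Polycomb genes above the filter 0 passed, at a median of -0.05. PCGF6, which takes the place of BMI1 in a variant complex, had the highest difference of 0.28 ± 0.09 (SE; 5 of 6 pairs; limma adjusted p = 0.222). RING1, CBX7, PHC1 and EZH1 were lower in SP cells in 6 of 6 pairs, with differences of -0.06 to -0.15 and limma adjusted p of 0.268 to 0.616. A lower SP value in 6 of 6 pairs was seen for 4.64% of all probe sets tested. Whether Polycomb genes differ as a set was not tested. These Polycomb genes were picked after their values were seen. Of 16 other surface or stem markers above the filter, 1 rose and 0 fell, against 0.61% of all probe sets called in either direction. The 1 was ABCG2, the pump already used above to check the sort. With 1 probe set per gene 2 rose, ABCG2 and EPCAM, against 0.983% of all genes called higher in SP cells. EPCAM, the antigen named in the treatment, had 0.25 ± 0.06 (higher in 6 of 6 pairs), with a limma adjusted p of 0.120 over all probe sets and 0.0497 with 1 per gene.

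Within a treatment, 0 of 25 members passed in the anti-EpCAM pairs or in the untreated pairs, as did 0% of all probe sets. LIN28B differed by 0.31 ± 0.11 in anti-EpCAM treated cells and by 0.34 ± 0.11 in untreated cells. TERT differed by 0.26 ± 0.08 in anti-EpCAM treated cells and by 0.36 ± 0.08 in untreated cells. The difference between these differences was -0.03 for LIN28B (95% interval -0.38 to 0.32) and -0.11 for TERT (-0.38 to 0.17). The interaction called 0 of the 32768 probe sets (0%). At an unadjusted limma p under 0.05 it held 535 of the 32768 probe sets and 1 of 25 members. That member was CD24 209772_s_at, at -0.29 ± 0.10 (SE, limma adjusted p = 1.00).

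The second comparison asks whether the antibody changed these markers. None of the 25 passed: the differences anti-EpCAM minus untreated, on the means of each pair, ran from -0.14 to 0.25 with a median of 0.03, against 0.01 for all probe sets. By limma 0 of 25 members passed, with 0 at an unadjusted p under 0.05, against 0% and 1.72% of all probe sets. The 9 probe sets below the filter, fitted without one, ran from -0.29 (CD44 1565868_at) to 0.38 (SOX2 213722_at). The limma unadjusted p of SOX2 213722_at was 0.0302, and none of them passed after adjustment. LIN28B had -0.02 ± 0.23 (SE, 3 against 3 pair means; 95% interval -0.57 to 0.54) and TERT -0.08 ± 0.14 (-0.41 to 0.25). SOX2 on 228038_at had 0.09 ± 0.15 (-0.26 to 0.44) and CD44 on 212063_at 0.04 ± 0.11 (-0.23 to 0.30). These intervals leave room for changes larger than those between the fractions, so 0 calls do not show that the markers were unchanged.

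In SP cells alone and in non-SP cells alone, limma also called 0 of 25 members and 0% of all probe sets. The 3 anti-EpCAM arrays and the 3 untreated arrays overlapped for each of the 25 in both fractions. Groups that did not overlap were seen for 2.23% of all probe sets (higher) and 2.05% (lower) in SP cells, and for 3.03% and 2.54% in non-SP cells. SOX9 on 202936_s_at had an antibody difference of 0.04 ± 0.27 (SE, pair means), with a 95% interval of -0.60 to 0.69. Antibody differences cross the sets in which the arrays look normalised, and fraction differences lie within them.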

How the data were processed

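The authors deposited 1 table of log2 values for 12 arrays, made with RMA per the submitters' processing notes. The RMA version and the arrays that went into a run together are not given in the sources used here. Values ran from 2.43 to 14.95. Precision is limited by how many arrays there are. Of 54613 probe sets that are not controls (62 controls were left out), 41091 had exactly 1 gene symbol in the probe table, 1801 several and 11721 no entry; only those with 1 were named. The members and the gene lists were chosen with earlier results of these data known.

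Values were quantile-normalised over the 12 arrays and fitted with limma 3.58.1 in R 4.3.3 without a trend, two-sided, with Benjamini-Hochberg adjustment over all 32768 probe sets above the filter. SP minus non-SP was fitted on within-pair differences. Deviations from group means of same-numbered SP and non-SP arrays within a treatment correlated at r = 0.51 to 0.86, so these arrays were taken as pairs; the labels do not say that a pair came from 1 sort. Across the antibody, same-numbered arrays had r of 0.67 (non-SP) and 0.61 (SP) for number 1. For number 3 these were 0.47 and 0.55. Number 2 had r of -0.21 and -0.37, so numbers were not taken as pairs there, although numbers 1 and 3 correlated. The scripts were tested on simulated data. All probe sets of the members are given, singly or by their range. Genes of the other lists are named where they pass, and the other examples from the lists were picked after their values were seen.

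The alternatives tried were values as deposited or centred on the array median, other filters, 1 probe set per gene (the brightest), a mean-variance trend, the GAPDH ratio as a covariate, fits with and without the replicate block, and each pair left out in turn. Genome coordinates are given only for RefSeq sequences (GRCh38.p14), since the array values are not tied to a build.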

Additional observations from a re-analysis of the deposited data

Results flagged for a closer look

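The sign of the fraction difference of NANOG on 220184_at split by treatment: SP minus non-SP was -0.03, -0.14 and -0.51 in the anti-EpCAM pairs, and 0.26, 0.17 and 0.39 in the untreated pairs. The means were -0.23 in anti-EpCAM pairs and 0.28 in untreated pairs, a difference of -0.502. This probe set had a mean level of 3.86, below the filter and within background, so the interaction was tested only in the fit without a filter, where the limma adjusted p was 1.00 (0.00937 unadjusted). The second NANOG probe set, 231079_at, showed no such split. Of the 34 member probe sets examined for a pair far from the others, 0 were found.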

How the results depend on the processing

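Over 6 pairs, SP minus non-SP called 200 probe sets. The count was 353 with 1 probe set per gene, 40 with the GAPDH ratio as a covariate, 0 with a mean-variance trend, and 0 to 329 with 1 pair left out: leaving out anti-EpCAM pair 1 gave 329, leaving out pair 3 of that treatment gave 8, and each of the other 4 gave 0. It was 0 without anti-EpCAM pairs 1 and 3 together, a choice made after seeing the data. With no replicate block, which ignores the pairing, it was 0. With 1 probe set per gene, 11 genes were called in untreated cells and 33 in anti-EpCAM treated cells, against 0 and 0. The replicate block across the antibody called 0 in each antibody comparison, as without it, and no alternative called any probe set there or for the interaction.

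Among the members, LIN28B (0.33, limma adjusted p 0.0395) and TERT (0.31, 0.0216) passed with 1 probe set per gene only. With 1 pair left out, the limma adjusted p was 0.102 to 0.399 for LIN28B and 0.0826 to 0.258 for TERT, and their differences were 0.27 to 0.40 and 0.26 to 0.34. Of 350 alternative values of the members' fraction differences, 332 kept their direction and 18 changed sign, none of them of LIN28B, TERT or SOX2 228038_at. Of 350 antibody differences, 53 changed sign, and 0 were called. Part of both sets of values could not change sign. Another filter, 1 probe set per gene, a mean-variance trend or another handling of the pairs leaves the difference itself as it was. The counts of kept directions are therefore no measure of stability. With values centred on array medians, the antibody differences of CD44 212063_at and 204490_s_at were -0.05 and -0.03, against 0.04 and 0.03. The genes called undetected were the same with deposited values. Taking the 75th or 99th percentile as background could not change them, since both limits lie above the filter that these genes failed. The data hold 3 pairs per treatment and 1 cell line, and the signals of TERT and THY1 lie within background.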
